A study of Mus musculus with 6 samples.

Results

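The genes described here are 55 genes of mitosis and cytokinesis, listed by name for their known roles, with no threshold on any value in these arrays. Of these, 54 were measured among 18193 genes in all, each read at the probe set whose mean log2 signal over the 6 arrays was highest. The remaining gene, Ccnb1, was not analysed here. RNA came from Ter119-positive cells of mouse fetal liver at embryonic day 14.5, the cells of 3 to 5 embryos of 1 genotype being combined in each pool. There were 3 wild type (WT) pools and 3 STAT5 knockout (KO) pools, 1 pool to an Affymetrix mouse whole-genome array. The sources used here give no strain, no construction of the knockout allele and no sex of the embryos. The only comparison is KO against WT, which asks which transcripts of fetal erythroid cells differ without STAT5, the transcription factor pair that the erythropoietin receptor activates.

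Ter119 marks red cell precursors from the erythroblast stages onwards. Erythroblasts divide while they mature, and they leave the cell cycle before the nucleus is expelled, so mitotic transcripts in such cells come from the stages that still divide. Mitosis begins when CDK1 joined to cyclin A or B is freed of inhibitory phosphate by CDC25 phosphatases. Condensin and topoisomerase II compact the chromosomes, motors of the kinesin family build the spindle, and the spindle checkpoint holds the anaphase-promoting complex (APC/C) in check until all kinetochores are attached. The APC/C then marks cyclin B and securin for destruction, separase opens cohesin, and the central spindle directs cytokinesis. Most of these genes are transcribed together late in the cycle. The DREAM complex represses them early, and MYBL2 with the MuvB core and FOXM1 activates them later, through a short promoter element called the cell cycle genes homology region (CHR), often beside CCAAT boxes bound by NF-Y.

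Promoter stretches are shown first because they carry what these genes share outside the arrays. RefSeq promoter windows of GRCm38.p6, from 250 bases before to 50 bases after the annotated start, were in the table for 46 of the 54 genes, in 49 windows. The CHR sequence TTTGAA, searched on both strands, was in 33 of the 49 windows (67.3%), against 17.9% of all 32851 windows and 13.4% of the windows of genes on the arrays. Its first base lay within 50 bases of the start in 59.2% of the windows of mitosis genes and in 4.94% of all windows. The CCAAT sequence was in 73.5% of them against 37.4% of all windows, and both motifs were in 59.2% against 6.95%. For comparison, windows of DNA replication and S phase genes held TTTGAA in 21.1% and CCAAT in 63.2%. The other CHR form, TTTAAA, was in 16.3% against 13.2% of all windows. TTCNNNGAA, the letters that STAT factors recognise, was in 1 of the 49 windows, that of Ncaph, against 8.3% of all windows. A match of letters is a description and shows no binding. The 120 bases upstream of the annotated start of 6 genes follow, 5′ to 3′ on the strand of the gene, with TTTGAA and CCAAT on either strand (TTCAAA and ATTGG when reversed) in capitals. Cdk1, Cdc20 and Top2a have both motifs upstream of the start. In other genes, such as Aurka, Bub1b and Plk1, TTTGAA lies after the start, outside such a stretch. Ube2c, Ccnb2 and Ube2s are genes whose 2 genotypes did not overlap on the arrays. Ccnb2 has TTTGAA in its window at -167 and 5 from the start, outside its stretch, and Ube2s has neither motif in its stretch.
Cdk1, chr10:69352913-69353032, minus strand: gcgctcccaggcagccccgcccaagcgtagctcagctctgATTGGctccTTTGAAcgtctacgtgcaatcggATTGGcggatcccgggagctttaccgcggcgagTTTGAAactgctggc
Cdc20, chr4:118437344-118437463, minus strand: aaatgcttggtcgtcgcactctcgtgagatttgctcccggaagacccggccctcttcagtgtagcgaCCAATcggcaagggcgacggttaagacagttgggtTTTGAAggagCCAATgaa
Top2a, chr11:99024190-99024309, minus strand: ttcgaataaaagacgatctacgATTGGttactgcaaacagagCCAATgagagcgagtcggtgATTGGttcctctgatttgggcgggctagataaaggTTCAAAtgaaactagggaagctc
Ube2c, chr2:164769809-164769928, plus strand: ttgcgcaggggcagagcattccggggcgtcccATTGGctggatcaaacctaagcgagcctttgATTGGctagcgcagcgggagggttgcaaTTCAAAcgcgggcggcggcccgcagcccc
Ccnb2, chr9:70421555-70421674, minus strand: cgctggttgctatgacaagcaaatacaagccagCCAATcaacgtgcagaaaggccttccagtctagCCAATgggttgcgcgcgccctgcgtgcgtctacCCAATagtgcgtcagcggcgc
Ube2s, chr7:4812341-4812460, minus strand: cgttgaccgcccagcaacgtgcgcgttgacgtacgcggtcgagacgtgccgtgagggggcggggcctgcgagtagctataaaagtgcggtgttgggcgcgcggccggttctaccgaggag

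Signals are given below as log2 of the deposited intensity, in the order of replicates 1, 2 and 3, and a difference is KO minus WT, its standard error (SE) coming from limma fitted to all genes. Of the 54 genes, 53 lay above the control level on all 6 arrays. That level, a log2 signal of 7.34, is one that 95% of probe sets for bacterial transcripts, which mouse RNA lacks, did not exceed. The exception, Kif15, a spindle kinesin, was below it on all 6 (5.86, 7.24 and 5.72 in WT, 5.46, 5.84 and 5.28 in KO), so no fold is given for it. As a check on the labels, all 4 probe sets of Stat5a and Stat5b were lower in each KO pool than in each WT pool, with adjusted p from 0.237 to 0.532 (limma over all probe sets), and at 3 of the 4 every KO pool was below the control level. At the remaining one, of Stat5b, the difference was -1.29. The sources do not say where the deletion lies relative to the probes. WT pools 2 and 3 stood apart for the mitosis genes, in opposite directions, and the values without each of them are given after the role groups for the list as a whole and for the genes the results turn on.

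No mitosis or cytokinesis gene passed an adjusted p of 0.05. The count was 0 of 54 in limma's fit with no trend of variance on mean, where 0.044% of all genes were called, and 0 of 54 with the trend, where 0.44% were called. At an unadjusted p under 0.05 there was 1 of 54, Ube2s, without the trend, against 8.9% of all genes, and 4 of 54 with it, against 11% of all genes. The smallest adjusted p among these genes was 0.56 without the trend and 0.295 with it, both for Ube2s. Their differences ran from -0.74 (Kif15) to 0.50 (Kif2c), with a median of 0.05, where the median of all genes was -0.08. Of the 54, 35 were above 0 and 19 below, where 58.1% of all genes were below 0. By the rule the submitters describe (fold above 1.5, p below 0.05, no adjustment), applied here with the methods' t-test, 0 of 54 genes and 4.81% of all genes were selected.

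How large a difference the arrays could have missed is read from the 95% intervals of limma's fit. For 44 of the 54 genes (81.5%) the interval lay within -1 and 1 on the log2 scale, as it did for 46.6% of all genes and 75.1% of genes above the control level on all arrays. The 10 genes whose interval passed -1 or 1 were Kif15, Kif2c, Kif20b, Cdc25c, Plk4, Cenph, Anln, Ncapd2, Smc4 and Ube2s. Within a 1.5-fold change in either direction lay the intervals of 13 genes, against 9.23% of all genes. An interval of this width does not show that a gene was equal in both genotypes. Precision is limited by 3 arrays to a genotype, and for single genes an exact two-sided permutation test cannot go below p = 0.1.

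**Figure D1:**
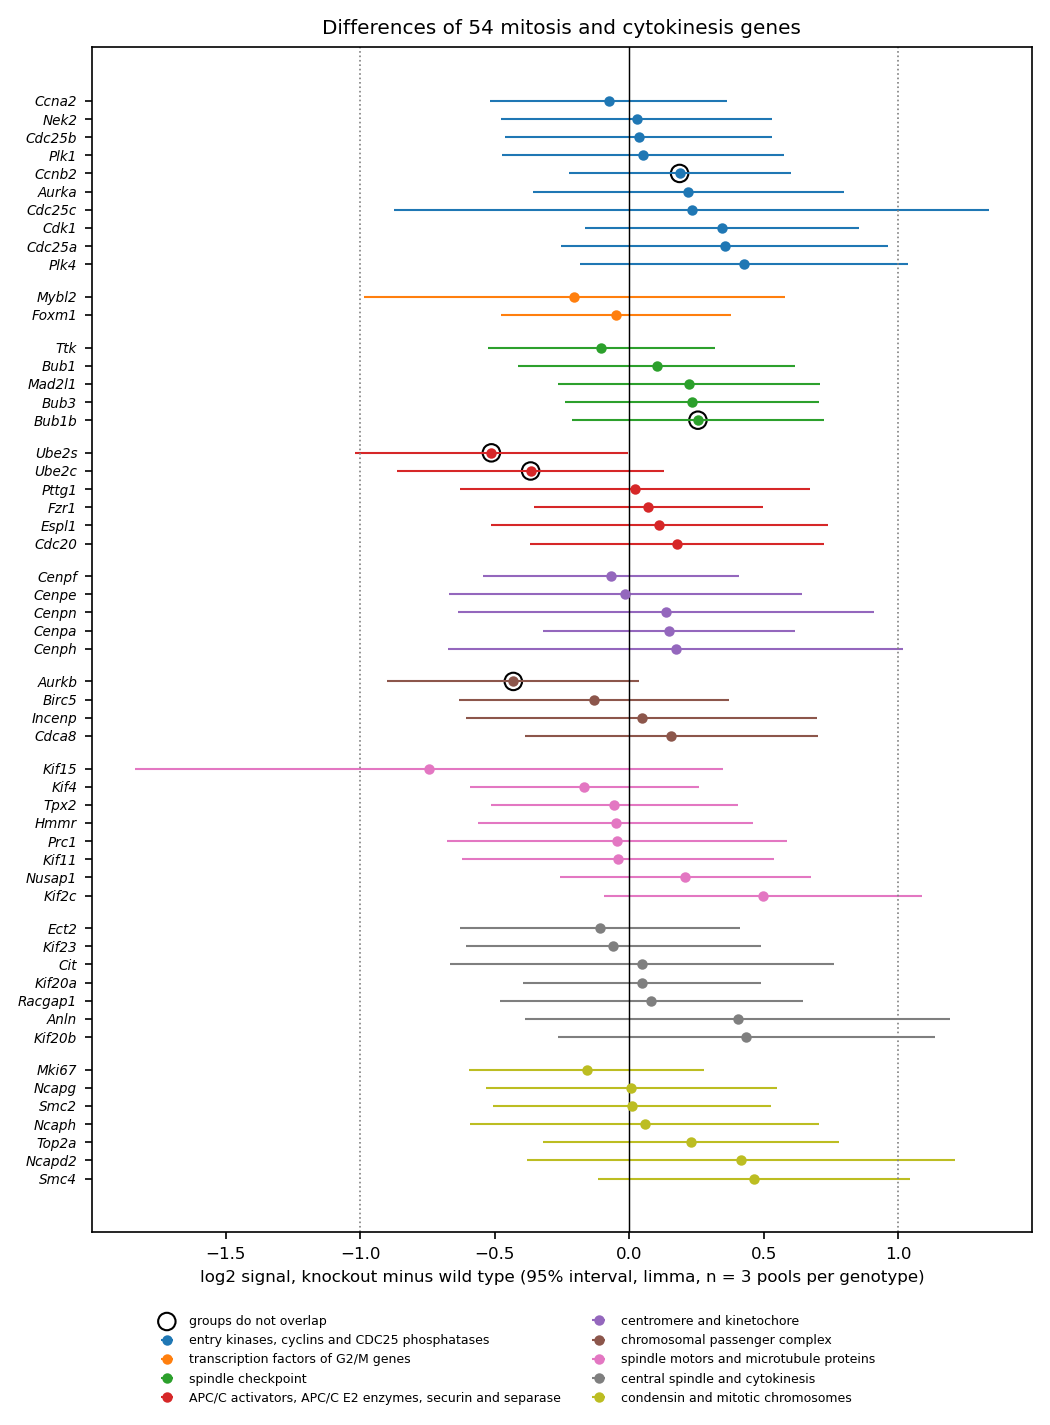
Difference in log2 signal, knockout minus wild type, of 54 genes in 9 role groups (points, with 95% intervals of limma's fit, 3 pools per genotype); dotted lines mark -1 and 1. Circles mark the 5 genes whose genotypes did not overlap, and the interval of 1 gene, Ube2s, leaves out 0.

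The genotypes did not overlap at 5 of the 54 genes (9.26%), a share below the 16.9% of all genes. Ube2s, Ube2c and Aurkb were lower in every KO pool than in every WT pool (3 of 54, against 9.85% of all genes), and Ccnb2 and Bub1b were higher (2 of 54, against 7.02%). Ube2c and Ccnb2 are described for this reason, after their values were seen. The differences of these 5 genes kept their sign after median centring and after quantile normalization, but the number of genes without overlap was then 2 and 9 of 54, against 15.7% and 16.8% of all genes.

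Ube2s and Ube2c encode the E2 enzymes that supply ubiquitin to the APC/C, UBE2C starting the chain and UBE2S extending it. Ube2s read 14.61, 14.62 and 14.43 in WT and 13.77, 14.31 and 14.05 in KO pools. The highest KO pool, replicate 2, lay just under the lowest WT pool, replicate 3. The difference was -0.51 (SE 0.21, adjusted p = 0.56, limma), with a 95% interval from -1.02 to -0.01. The other Ube2s probe set gave -0.49, again with no overlap. Ube2c read 15.40, 15.23 and 15.26 in WT and 14.70, 15.21 and 14.90 in KO pools. The difference was -0.37 (SE 0.20, adjusted p = 0.631), and the gap between the genotypes was small, since KO replicate 2 was almost level with WT replicate 2. Its signal reached 62.6% of the highest signal of an array. Close to the upper end of the scale differences may be compressed, which was not tested.

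The other genes of this role group, those of the APC/C activators, securin and separase, showed no such difference. Cdc20, the APC/C activator that the checkpoint restrains, read 12.62, 12.44 and 13.08 in WT and 12.89, 12.97 and 12.82 in KO pools, so that all KO pools lay inside the WT range (difference 0.18, SE 0.22). Fzr1, which encodes the APC/C activator of late mitosis and G1, differed by 0.07. Pttg1, the securin gene, differed by 0.02, and Espl1, the separase gene, by 0.11. Of the 6 genes of the role group, Ube2s and Ube2c included, 4 were above 0 and 2 below. The subunits of the APC/C itself, a list of 14, had a median of -0.01 with 0 called. In that list Anapc13 differed by -0.38, without overlap, and Anapc11 by -0.43 (-0.24 without WT replicate 1, -0.68 without WT replicate 2, -0.94 without probe sets that end in _x_at, _s_at or _a_at).

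Among cyclins, mitotic kinases and CDC25 phosphatases, 9 of 10 differences were above 0, with a median of 0.20, and 0 of 10 passed. Cdk1, the kinase that drives entry into mitosis, read 12.32, 12.29 and 12.65 in WT and 12.57, 12.99 and 12.73 in KO pools. Only KO replicate 1 lay below the highest WT pool, and the difference was 0.35 (SE 0.21, adjusted p = 0.642). Its partner Ccnb2, encoding cyclin B2, read 13.21, 13.07 and 13.31 in WT and 13.31, 13.41 and 13.43 in KO pools, a difference of 0.19 (SE 0.17). The genotypes were separated by less than the rounding of these values, at WT replicate 3 and KO replicate 1. Ccna2, the cyclin A gene, read 14.16, 14.11 and 14.40 in WT and 14.04, 14.25 and 14.16 in KO pools, a difference of -0.08 whose sign turned to 0.04 after median centring. Its other probe set differed by -0.28, with each KO pool below each WT pool. The probe sets of Ccna2 thus did not give the same picture of overlap.

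Plk1, the polo kinase of spindle assembly and checkpoint release, read 11.65, 11.18 and 11.75 in WT and 11.63, 11.53 and 11.58 in KO pools. The KO pools were close together within the WT range (difference 0.05, SE 0.21). Aurka, the spindle pole kinase, read 11.96, 11.65 and 12.36 in WT and 12.12, 12.16 and 12.34 in KO pools, again inside the WT range (difference 0.22, SE 0.24). Plk4, which starts centriole duplication, read 11.06, 10.61 and 11.39 in WT and 11.35, 11.41 and 11.58 in KO pools, a difference of 0.43 (SE 0.25). WT replicate 3 lay among the KO pools, and the other Plk4 probe sets gave -0.07 and 0.13. The phosphatase gene Cdc25a read 10.89, 10.29 and 10.16 in WT and 10.91, 10.67 and 10.82 in KO pools, a difference of 0.36 (SE 0.25). Its second probe set above the control level gave -0.28, so the direction for Cdc25a depends on the probe set. Cdc25b read 14.08, 14.22 and 14.09 in WT and 14.02, 14.47 and 14.01 in KO pools, a difference of 0.04 (-0.12 without KO replicate 2). Cdc25c read 9.51, 8.71 and 10.50 in WT and 9.77, 9.75 and 9.89 in KO pools. The spread of Cdc25c among WT pools, 1.79 from lowest to highest, was the widest of the 54 genes, and its difference was 0.23 (SE 0.45), or -0.20 without WT replicate 2. The remaining kinase gene, Nek2, differed by 0.03.

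The transcription factor genes of this programme also overlapped. Foxm1 read 10.37, 10.49 and 10.43 in WT and 10.42, 10.51 and 10.21 in KO pools, a difference of -0.05 (0.06 after median centring). Mybl2, which encodes B-MYB, read 11.31, 10.33 and 11.30 in WT and 10.57, 10.92 and 10.84 in KO pools, a difference of -0.20 (SE 0.32), or -0.53 without WT replicate 2 and -0.04 without WT replicate 1 or 3. WT replicate 2 was the lowest of the 6 pools for Mybl2. In the list of 11 DREAM and MYB-MuvB partners, the median was 0.20 with 8 above 0 and 0 called. Rbl1, the p107 gene, differed by 0.43, and Rbbp4, a histone-binding subunit gene, by -0.33 without overlap (0.38 without probe sets that end in _x_at, _s_at or _a_at).

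Genes of the spindle checkpoint lay slightly above 0, with 4 of 5 higher in KO pools and a median of 0.22. Bub1b, encoding the checkpoint protein BUBR1, read 11.26, 10.88 and 11.28 in WT and 11.32, 11.41 and 11.45 in KO pools. The genotypes did not overlap, and the difference was 0.26 (SE 0.19, adjusted p = 0.694). At the other Bub1b probe set above the control level on all arrays they overlapped. It gave 0.61, with KO replicate 1 (10.64) below WT replicate 3 (10.76). Mad2l1, encoding MAD2, differed by 0.22 (SE 0.20). Bub3, the partner of BUB1 and BUBR1, differed by 0.23, with its other probe sets at 0.04, -0.11, -0.28 and 0.21. Ttk, the MPS1 kinase gene, read 9.88, 9.81 and 10.10 in WT and 9.87, 9.80 and 9.82 in KO pools, a difference of -0.10 (0.01 after median centring). Only WT replicate 3 stood out among the pools for Ttk. Bub1 differed by 0.10.

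At the centromere, Cenpa, the histone H3 variant that marks it, differed by 0.15, and Cenpe, a kinetochore kinesin gene, by -0.01. Cenpf, a large kinetochore protein gene, read 12.38, 12.45 and 12.80 in WT and 12.41, 12.59 and 12.44 in KO pools, a difference of -0.07 (0.05 after median centring). Cenph, of the inner kinetochore, read 9.11, 8.61 and 9.61 in WT and 9.62, 8.81 and 9.41 in KO pools. The pools of both genotypes were interleaved for Cenph, with a difference of 0.17 (SE 0.35, or -0.08 without WT replicate 2). Cenpn, of the same assembly, differed by 0.14 (-0.17 without WT replicate 2). The genotypes overlapped at all 5 of these genes. In the wider list of 32 outer kinetochore and other centromere genes the median was 0.09, with 21 above 0, 0 called, and 5 (15.6%) without overlap, near the 16.9% of all genes. All 5 were higher in KO pools, as were 7.02% of all genes. Mis18a, which helps to load CENP-A, read 10.90, 10.61 and 10.89 in WT and 11.35, 11.50 and 11.46 in KO pools. That difference of 0.64 (SE 0.18, adjusted p = 0.47) was the largest of the list, and all 3 KO pools were clear of the WT range. Zwint, a kinetochore gene, differed by 0.42 (SE 0.19), or by 0.07 as the mean of all its probe sets.

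The chromosomal passenger complex corrects attachments and steers cytokinesis, and 2 of its 4 genes were above 0 and 2 below. Aurkb read 11.25, 10.97 and 11.26 in WT and 10.83, 10.54 and 10.82 in KO pools, a difference of -0.43 (SE 0.19, adjusted p = 0.576) with no overlap. The other Aurkb probe set read 10.30, 9.82 and 10.71 in WT and 10.64, 10.26 and 10.39 in KO pools, a difference of 0.15. Both lay above the control level, so the arrays gave no single direction for Aurkb. Their suffixes, _x_at and _s_at, mark probes that can also bind other transcripts. Birc5, the survivin gene, read 13.63, 13.46 and 13.95 in WT and 13.41, 13.64 and 13.61 in KO pools (difference -0.13, SE 0.21, or 0.01 without WT replicate 3). Cdca8, the borealin gene, read 13.09, 12.85 and 13.51 in WT and 13.24, 13.30 and 13.37 in KO pools, all KO pools lying within the WT range (difference 0.16). Incenp, the scaffold gene, differed by 0.05. Its other probe sets above the control level gave 0.10, 0.07 and 0.51, the last higher in each KO pool than in each WT pool.

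**Figure D2:**
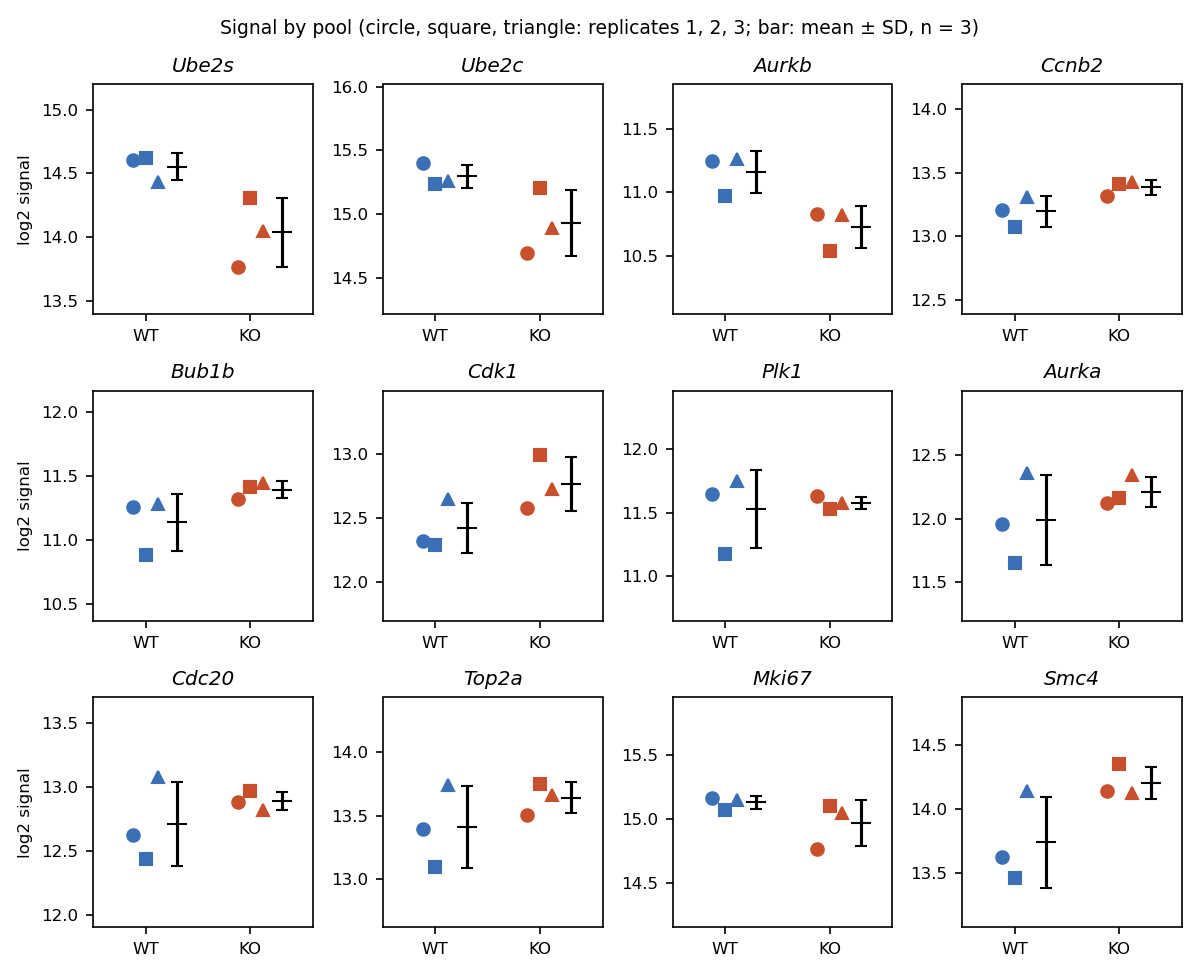
Log2 signal of 12 genes in each pool (circle, square and triangle for replicates 1, 2 and 3; bars give mean ± SD, n = 3), each panel spanning the same range of 1.8. Ube2s, Ube2c and Aurkb are lower and Ccnb2 and Bub1b higher in every KO pool, while the other 7 genes overlap.

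Spindle motors and microtubule proteins were divided, 2 of 8 above 0 and 6 below, with 0 without overlap. Kif2c, which encodes the microtubule-depolymerising kinesin MCAK, read 10.52, 10.46 and 11.12 in WT and 11.08, 11.36 and 11.16 in KO pools, the largest positive difference of the 54 genes (0.50, SE 0.24, adjusted p = 0.59, limma). Only WT replicate 3 reached the KO pools. Its other 3 probe sets gave 0.13, 0.24 and 0.04. Nusap1, which bundles spindle microtubules, differed by 0.21, and Kif4, a chromosome-bound kinesin gene, by -0.17. The other measured genes above the control level, Kif11, Tpx2, Hmmr and Prc1, lay between -0.05 and -0.04. In the list of 31 other spindle and cytokinesis genes the median was 0.00, with 15 above 0, 16 below and 0 called. Kifc1, a minus-end kinesin gene, differed by -0.26 in that list, without overlap, and Depdc1a by -0.30.

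Of the cytokinesis genes, each at its chosen probe set, 5 of 7 were above 0 and 0 separated the genotypes. Kif20b, a kinesin gene of late cytokinesis, read 9.27, 8.78 and 9.72 in WT and 9.48, 9.85 and 9.75 in KO pools, a difference of 0.44 (SE 0.29). KO pools 2 and 3 were above all WT pools and KO replicate 1 was not. Anln, the anillin gene of the contractile ring, read 11.21, 10.85 and 11.99 in WT and 11.61, 11.85 and 11.81 in KO pools (difference 0.40, SE 0.32). The KO pools of Anln lay between WT replicates 1 and 3, and its other probe set gave -0.44. Ect2, which activates RhoA at the division plane, read 11.85, 11.90 and 12.36 in WT and 11.77, 12.02 and 11.99 in KO pools, a difference of -0.11 (0.0044 after median centring). WT replicate 3 was the highest pool for Ect2. Kif23 and Racgap1, which together form centralspindlin, differed by -0.06 and 0.08, Cit, the citron kinase gene, by 0.05, and Kif20a by 0.05. The other Kif23 probe sets gave -0.01 and 0.34, the latter without overlap. Those of Cit gave 0.52, 1.65 (with WT replicates 1 and 2 below the control level) and -0.47, the last without overlap. The direction for Kif23 and Cit thus depends on the probe set.

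Condensin and other mitotic chromosome genes had a median of 0.06, with 6 of 7 above 0 and 0 without overlap. Smc4, a condensin ATPase gene, read 13.63, 13.46 and 14.14 in WT and 14.14, 14.35 and 14.12 in KO pools. KO pools 1 and 3 were level with WT replicate 3, and the difference was 0.46 (SE 0.24, adjusted p = 0.607). Its other probe sets gave 0.21 and 0.20. Smc2, the partner ATPase, differed by 0.01, and its other probe sets lay between -0.05 and 0.22. Ncapd2 read 12.20, 11.64 and 12.85 in WT and 12.69, 12.63 and 12.62 in KO pools (difference 0.42, SE 0.33), with the KO pools inside the WT range. Ncapg and Ncaph differed by 0.01 and 0.06. Top2a, topoisomerase II alpha, read 13.39, 13.10 and 13.74 in WT and 13.51, 13.75 and 13.66 in KO pools, a difference of 0.23 (SE 0.23). Mki67, the Ki-67 gene used to mark dividing cells, read 15.17, 15.07 and 15.15 in WT and 14.77, 15.10 and 15.05 in KO pools, a difference of -0.16 (SE 0.18). Its signal reached 58.0% of an array's highest. Neither proliferation gene separated the genotypes.

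The 54 genes had 130 probe sets in all, and 118 of these exceeded the control level in WT or KO pools. The 118 had a median difference of 0.08, and the genotypes did not overlap at 10 of them (8.47%), 4 higher and 6 lower in KO pools, against 20.1% of all probe sets above that level. Of 38 genes with more than 1 such probe set, 22 had all probe sets on 1 side of 0 and 16 had both directions.

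The range of the WT pools was larger than the difference between genotypes for most of these genes, and most shared its order. The median range was 0.56 in WT and 0.28 in KO pools. For 49 of 54 genes (90.7%) the range of the WT pools exceeded the difference between genotypes, as it did for 80.2% of all genes. A range of 3 pools is often wider than a difference of 2 means, so this count is only a description. WT replicate 2 was the lowest and WT replicate 3 the highest WT pool for 38 genes (70.4%), an order found for 16.0% of all genes. These pools were singled out after their values were seen. The median of WT replicate 3 minus WT replicate 2 was 0.50 over the mitosis genes and -0.16 over all genes. WT replicate 2 was the lowest of the 6 pools for 33 of the 54 genes, and WT replicate 3 the highest for 27. Measured from the mean of the WT pools, the median deviation was -0.04, -0.23 and 0.24 in WT and -0.01, 0.07 and 0.14 in KO pools. All KO pools thus lay between WT replicates 2 and 3. The SD of these medians was 0.24 among WT and 0.08 among KO pools, and the SD of single genes was larger in WT than in KO pools for 41 of 54 genes (75.9%), against 56.8% of all genes. Among genes above the control level, the WT range was widest for Cdc25c (8.71 and 10.50 in WT replicates 2 and 3), Ncapd2 (11.64 and 12.85) and Anln (10.85 and 11.99). Ube2s, Pttg1, Cdc25a, Cdc25b, Foxm1, Nusap1, Cit and Kif15 did not share the order of these pools and were lower in WT replicate 3 than in WT replicate 2.

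**Figure D3:**
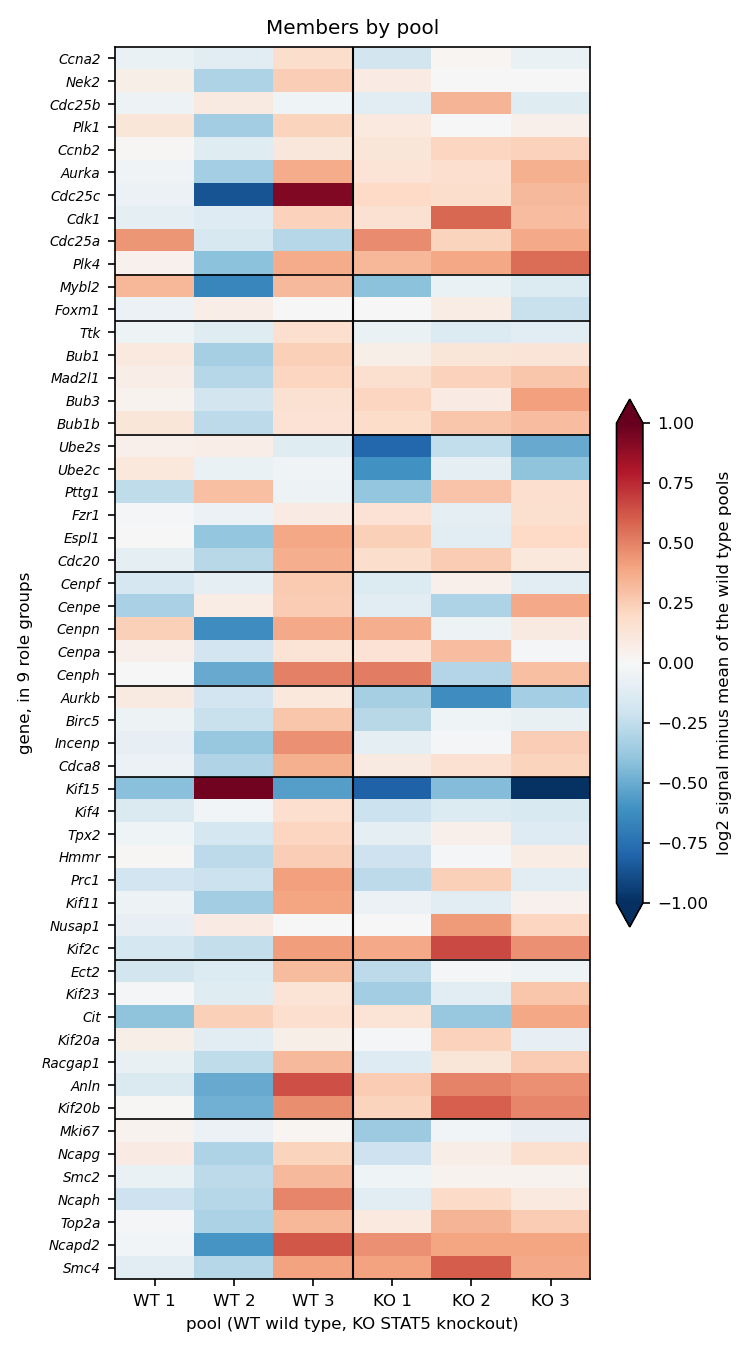
Log2 signal of each gene in each pool minus the mean of its WT pools, in 9 role groups separated by lines; the colour scale ends at -1 and 1. Most rows are blue in WT replicate 2 and red in WT replicate 3, whose median deviations were -0.23 and 0.24. The median deviations of the KO pools lie between these. By gene, all KO pools were above WT replicate 2 for 34 of 54 and below WT replicate 3 for 31.

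Without WT replicate 2, the median difference of the 54 genes was -0.07, with 23 above 0. Without WT replicate 3 it was 0.17, with 44 above 0 and 22 of 54 genes without overlap, where 34.1% of all genes did not overlap with 2 pools against 3. The sign of the small median therefore rested on which WT pools were included. In each of these fits 0 of 54 genes were called, but so was no gene on the arrays, so this count is not particular to the mitosis genes. Single genes moved with these pools too. Without WT replicate 2 and then without WT replicate 3, the difference was 0.04 and 0.36 for Cdc20, 0.05 and 0.41 for Aurka, and 0.07 and 0.39 for Top2a. For Ncapd2 it was 0.12 and 0.72, for Anln 0.15 and 0.72, for Smc4 0.32 and 0.66, and for Kif2c 0.38 and 0.71. For the genes without overlap it was -0.48 and -0.57 (Ube2s), -0.40 and -0.38 (Ube2c), -0.53 and -0.38 (Aurkb), 0.13 and 0.24 (Ccnb2), and 0.13 and 0.33 (Bub1b). A gene without overlap cannot change sign when 1 pool is left out, so only the sizes of these 5 differences are informative here. Scaling also moved the median. After median centring of the arrays the median was 0.16 (median of all genes 0.03), and after quantile normalization 0.03 (median of all genes -0.04).

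Other cell cycle lists were also low in WT replicate 2 and high in WT replicate 3. DNA replication and S phase genes deviated by 0.05, -0.34 and 0.30 in WT and 0.22, -0.00 and 0.07 in KO pools by median, and other centromere genes by -0.03, -0.22 and 0.28 and by 0.09, 0.12 and 0.16. Of 41 S phase genes, 26 were above 0 in KO pools, the median was 0.07, and 0 were called. At an unadjusted p under 0.05 there were 3 higher (3.41% of all genes) and 1 lower (5.5% of all genes), and the 4 of 41 together lay near the 8.9% of all genes. Pold1, a DNA polymerase delta gene, differed by 0.54 (SE 0.18) and Pole, the polymerase epsilon gene, by 0.73 (SE 0.24), both without overlap. Mcm6, of the replicative helicase, was the remaining gene higher at that level (0.57), and E2f2, of the E2F factors, the lower one (-0.45). The cohesin list of 12 had a median of 0.13 with 4 without overlap (33.3%, against 16.9% of all genes). Of these, 3 were higher in KO pools (7.02% of all genes) and 1, Rad21, was lower (-0.28, against 9.85% of all genes). In the cohesin list Wapl, which releases cohesin, differed by 0.42, and Nipbl, which loads it, by 0.41. Ncapd3 of condensin II differed by 0.55 (SE 0.26), but Ncaph2 of the same complex by -0.26 (0.01 without probe sets that end in _x_at, _s_at or _a_at). Among 13 inhibitors and modulators of CDK1, 11 were above 0, with a median of 0.16, and Cks2, a CDK-binding subunit gene, differed by 0.32 without overlap. Bora, a gene for an activator of the Aurora A and PLK1 kinases, differed by 0.23.

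Markers of other cells differed between the same pools. All 12 measured hepatocyte markers were highest in WT replicate 2, and their median deviation was -0.04, 0.47 and -0.38 in WT and -0.75, -0.74 and -0.42 in KO pools. Their summed signal ran from 158771 to 266669 in WT and from 135286 to 149495 in KO pools, with 0 of 12 below the control level on all arrays, although the cells were selected for Ter119. Of the 7 progenitor genes, Kit, Myb, Cd44 and Myc were higher in KO pools without overlap, while Cdk6 differed by 0.17, Gata2 by -0.03 and Cd34 by -0.15. Their median deviation was 0.04, 0.21 and -0.43 in WT and 0.78, 0.51 and 0.67 in KO pools. The summed signal of the progenitor genes was 4124 to 5127 in WT and 7829 to 9240 in KO pools, so that each KO pool was above each WT pool. The erythroid markers, with 9 of 11 measured, had a summed signal from 234283 to 244795 in WT and from 186545 to 239943 in KO pools, with 0 of 9 below the control level on all arrays. Summed signals of the other lists, in WT and then in KO pools, were 195331 to 245451 and 157284 to 214842 for 8 late erythroblast genes, 2943 to 4900 and 2482 to 3057 for endothelium, and 22098 to 38041 and 27505 to 37000 for macrophages. They were 3708 to 14041 and 3848 to 5134 for megakaryocytes, 4322 to 7541 and 2327 to 8063 for myeloid cells, and 1245 to 1391 and 1200 to 1380 for lymphoid cells, and no marker of any list was at 0. The part of these markers in the spread of the mitosis genes was not tested. In pooled cells, a different share of dividing cells and a different amount of mitotic RNA per cell cannot be told apart.

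**Figure D4:**
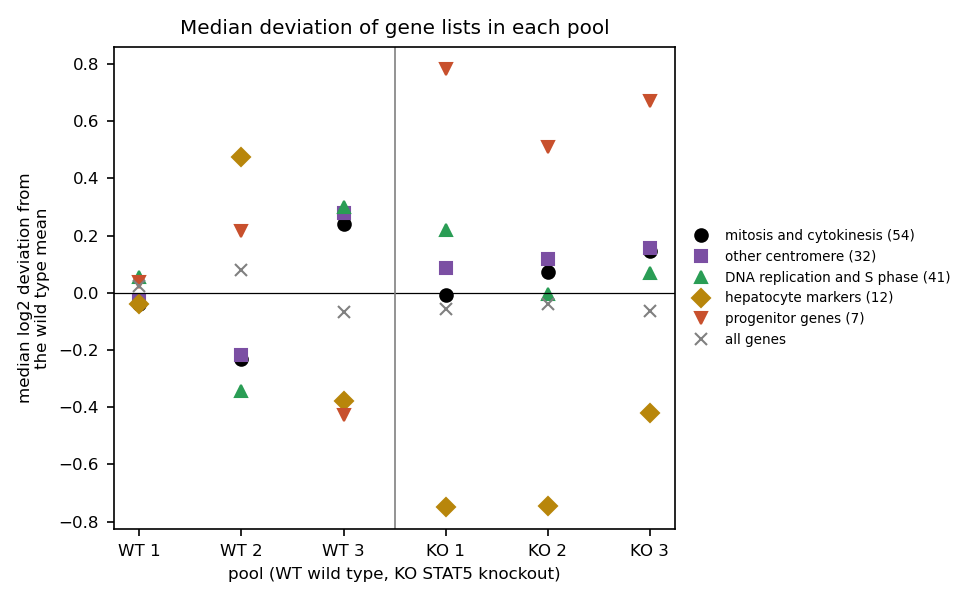
Median log2 deviation from the mean of the WT pools, for 5 gene lists and all genes, in each pool. Mitosis, other centromere and S phase genes are low in WT replicate 2 and high in WT replicate 3, hepatocyte markers run the other way there, and progenitor genes are at 0.51 or more in all KO pools.

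Differences were also set beside the promoter motif. The 30 genes with TTTGAA in their window had a median difference of 0.10 and 3 without overlap. The 16 genes with a window but no TTTGAA had 0.05 and 1 without overlap. The 8 genes with no promoter window had -0.00 and 1 without overlap, where 16.9% of all genes did not overlap. Between WT replicates 2 and 3 the median difference was 0.55 for genes with TTTGAA. It was 0.34 for genes with a window but no TTTGAA and 0.34 for genes with no window. These values are given as a description.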

How the data were processed

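RNA from 6 pools was hybridised to 6 arrays, per the labels' protocols. The deposited table holds 1 linear intensity per probe set and array. RMA and Partek, without versions, appear in the submitters' processing notes. The deposited intensities are linear, and on every array their trimmed mean (2% off each tail) is 500.003, so the arrays look scaled to a common mean, a step the sources used here do not record. Groups and replicate numbers came from the titles. Replicates are separate pools of embryos.

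log2 of the deposited intensity was used without a pseudocount. Probe sets with 1 gene symbol in GEO's platform annotation (34945 of 45037, with 932 having several and 9160 none) gave 18193 genes, 1 probe set each. Symbols were checked by Entrez ID against RefSeq genes of GRCm38.p6 (34741 matched, 0 changed). limma 3.58.1 (lmFit, eBayes) in R 4.3.3 compared 3 KO with 3 WT arrays, without and with a mean-variance trend, with Benjamini-Hochberg adjustment over all genes. Scripts were tested on simulated data. Control probe sets (64) stayed out of the fits, and 27 of them set the control level, a signal of 162.5.

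Genes described by all their values were those past the threshold, at an unadjusted p under 0.05, with the largest rise or fall of a role group, or fixed by name. Ccnb2, Ube2c, Anln, Ncapd2, Mad2l1, Bub3, Cenpn, Kif4, Nusap1, Mcm6, E2f2 and Rad21 were added after their values were seen. Each pathway list is represented by the 2 genes with the smallest p. The gene list, the pathway lists and the marker lists were chosen with earlier results of these data known. No gene list was tested as a set.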

Additional observations from a re-analysis of the deposited data

How the results depend on the processing

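No mitosis gene was called under any of the 11 alternatives of model, scaling, filter and probe set. None was called without any 1 array either, where no gene at all was called. The smallest adjusted p among these genes ran from 0.251 to 0.753 (limma, and for 1 setting the methods' t-test). The median of their differences moved by less than the spread between WT pools throughout, from -0.07 to 0.17. The number without overlap was 5, but quantile normalization gave 9 (16.8% of all genes) and median centring 2 (15.7%), with between 7 and 22 without 1 array, where 25.3% to 34.1% of all genes did not overlap.

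Over all genes the count of 8 called moved to 80 with the trend (44 higher, 36 lower), 66 with the trend and robust estimation, 4 by the methods' t-test, 15 after quantile normalization, 3 after median centring, 20 without the dimmer 50% of probe sets, 15 with array weights, 3 without probe sets that end in _x_at, _s_at or _a_at, and 0 without any 1 array. The genotypes share replicate numbers, and the deviations of same-numbered pools were weakly correlated (r = 0.023, 0.041 and 0.037 across genes, which are not independent replicates). Differently numbered pools gave r from -0.053 to 0.019. No label says that pools of the same number were paired. With the replicate block 0 genes were called, and 0 of the mitosis genes.

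Of 857 values recomputed for 51 genes, 835 kept their direction and 22 turned it, and the cause was not tested. Many of the 835 could not have turned. The trend, robust estimation, the methods' t-test and the replicate block leave the difference itself unchanged. Genes without overlap also keep their sign when 1 array is left out. After median centring the values that turned were Ccna2 (0.0363), Cenpf (0.0453), Ect2 (0.0044), Foxm1 (0.0633) and Ttk (0.0097), and after quantile normalization Plk1 (-0.0016). With the mean of all probe sets they were Anln (-0.0171) and Ttk (0.0746). Without probe sets that end in _x_at, _s_at or _a_at they were Bub3 (-0.11), Plk4 (-0.0716), Ncaph2 (0.0070) and Rbbp4 (0.38). Without 1 array the difference ran from -0.24 to 0.0064 for Birc5, from -0.13 to 0.0119 for Ccna2, from -0.12 to 0.11 for Cdc25b, from -0.20 to 0.69 for Cdc25c, from -0.15 to 0.0615 for Cenpf, from -0.0779 to 0.42 for Cenph, from -0.17 to 0.33 for Cenpn, from -0.20 to 0.0504 for Ect2, from -0.11 to 0.0352 for Foxm1 and from -0.12 to 0.16 for Plk1.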
